A study of Mus musculus with 2 samples.

Results

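Tropomyosins, tropomodulins and leiomodins are the proteins that line actin filaments and set the state of their slow-growing, pointed ends. A tropomyosin is a coiled coil that lies along the actin filament; in striated muscle it moves with troponin to expose the myosin sites, and in other cells it marks out classes of filaments such as stress fibres. A tropomodulin caps the pointed end together with tropomyosin, and a leiomodin, a relative of the tropomodulins, binds there too but promotes the start and lengthening of filaments. In skeletal muscle these proteins keep the thin filaments of the sarcomere at an even length, and loss of Lmod3 causes a severe nemaline muscle disease. The genes described here were taken by symbol and number 9 of the 26100 genes listed in both deposited count matrices: the 4 tropomyosin genes Tpm1, Tpm2, Tpm3 and Tpm4, the 3 tropomodulin genes Tmod1, Tmod3 and Tmod4, and the 2 leiomodin genes Lmod2 and Lmod3. All 9 were found in both matrices, and their relatives Tmod2, the tropomodulin of neurons, and Lmod1, the leiomodin of smooth muscle, are given beside them.

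The study made single-cell RNA profiles, with the 10x Genomics 3′ droplet assay, of induced myogenic progenitor cells (iMPC) and of mouse embryonic fibroblasts (MEF). The iMPC were produced from embryonic fibroblasts by the muscle regulator MyoD together with a treatment the labels write as F/R/C, were kept in medium with F/R/C, and are called a stable clone in the design text, so their cells may share whatever is particular to that clone. The MEF were grown in MEF media. Both cultures have the genotype Tg:Pax7-nGFP/C57BL6;DBA2, a transgene that reports Pax7 with nuclear GFP, so the transgene is carried by the controls too. Each group is 1 library. There was no replicate, and no test was possible: every interval below is an exact 95% interval that covers counting error only, and every comparison is between these libraries or between cells of 1 library, not between conditions.

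Cells of the iMPC library were kept with over 8035 UMIs (unique molecular identifiers, each standing for 1 captured RNA molecule), which is 10% of the 99th percentile of the 10000 largest barcodes, and at most 20% mitochondrial UMIs, which left 9349 cells with a median of 20846 UMIs. The MEF library kept 6043 cells, under the same mitochondrial limit, with a median of 18929 UMIs. Within iMPC, 4 sets were read out. The Pax7 set had at least 1 UMI of Pax7, the satellite cell factor, and 0 of Myog, and held 2180 cells. The Myog set had at least 5 UMIs of Myog, the factor of muscle commitment, and at most 1 of Ckm, and held 1724 cells. The Ckm set had at least 5 UMIs of Ckm, the muscle creatine kinase, and held 1037 cells. The Dcn set had at least 5 UMIs of Dcn, the fibroblast proteoglycan decorin, and held 553 cells, of which 110 were also in the Pax7 set, 18 in the Myog set and 18 in the Ckm set. No member gene was used to choose cells. A UMI minimum also selects on depth, and the median was 18729.5 UMIs in the Pax7 set, 23857.5 in the Myog set, 42148 in the Ckm set and 18064 in the Dcn set.

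The sets carried the markers of their names, with exceptions. The 6 myocyte markers summed to 43457 CPM (a gene's UMIs scaled to 1e6 UMIs of the set) in the Ckm set and to 95.9 CPM in MEF, where Ckm itself had 0 UMIs. In the Myog set they summed to 11974 CPM. The 5 committed myoblast markers summed to 2360 CPM in the Myog set and 2073 in the Ckm set, where Mymk and Mymx were higher than in the Myog set. The 7 satellite cell markers had their highest sum, 567 CPM, in the Pax7 set. Of these, Chrdl2 was 0.0227 CPM there, and Vcam1 was 42.6 CPM against 190.5 in MEF. Fibroblast markers in the Pax7 set summed to 1758 CPM, with 7 of 9 at 10 CPM. All 9 fibroblast markers reached 10 CPM in MEF and in the Dcn set, but the Dcn set also had all 6 myocyte markers at 10 CPM, summing to 3821 CPM against 788 in the Pax7 set, and all 5 committed myoblast markers. The 7 smooth muscle markers summed to 9995 CPM in MEF, of which Acta2, smooth muscle actin, gave 6108 CPM, against 429 to 994 CPM in the iMPC sets, and 6 of the 7 reached 10 CPM in MEF. Endothelial, immune and cardiac markers reached 10 CPM in no set; 1 of 4 glial markers (S100b) did so in the Dcn set and 1 of 4 epithelial markers (Krt18) in MEF. The 18 cells shared by the Dcn and Ckm sets had a median of 64083.5 UMIs. Kept cells of the libraries had 16 barcode sequences in common.

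The members lie apart in the genome (GENCODE M21 on GRCm38). Tpm1 spans chr9:67022590-67049406 on the minus strand, Tpm2 chr4:43514711-43523765 on the minus strand, Tpm3 chr3:90072649-90100902 on the plus strand and Tpm4 chr8:72134975-72153142 on the plus strand. Tmod1 spans chr4:46038935-46116032 (plus), Tmod3 chr9:75497707-75559657 (minus) and Tmod4 chr3:95124476-95129209 (plus). Lmod2 spans chr6:24597762-24605414 (plus) and Lmod3 chr6:97238534-97252759 (minus). The annotation holds 21 transcripts for Tpm1, 16 for Tpm3, 6 each for Tpm2, Tmod3 and Tmod4, 5 for Tmod1, 2 for Tpm4 and 1 each for Lmod2 and Lmod3. The UMIs were read at the 3′ end, so the muscle and cytoplasmic splice forms of a tropomyosin gene are counted together. Tmod3 overlaps Gm48789 on its own strand, and Tpm3 has a near copy in the files, Tpm3-rs7, at 0.945 to 3.41 CPM. How far this affects the counted levels of Tmod3 and Tpm3 was not examined. Tmod1 overlaps Tstd2, and Tpm4 overlaps Gm26586 and Gm16091, on the other strand, and the sources used here do not state whether counting used strand.

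Promoter sequence is shown for a tropomyosin high in the Ckm set, a tropomyosin low there, a tropomodulin and a leiomodin. Tpm3 was included because it goes the other way from the rest between the iMPC sets. E-boxes are marked because MyoD, used to make iMPC, binds the E-box CANNTG. The sequences are from RefSeq (GRCm38.p6), which gave 8 promoter entries for 7 of the 9 members, and are written 5′ to 3′ along the gene, with E-boxes in capitals. They are the parts upstream of any annotated transcript at chr4:43523766-43523804 (minus strand) for Tpm2, chr3:90072401-90072600 (plus) for Tpm3, chr3:95124264-95124463 (plus) for Tmod4 and chr6:24597521-24597720 (plus) for Lmod2. Tpm3 has 2 entries, and entry 1 is shown. Which of its transcripts start there was not examined.
Tpm2: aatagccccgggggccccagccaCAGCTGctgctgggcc
Tpm3: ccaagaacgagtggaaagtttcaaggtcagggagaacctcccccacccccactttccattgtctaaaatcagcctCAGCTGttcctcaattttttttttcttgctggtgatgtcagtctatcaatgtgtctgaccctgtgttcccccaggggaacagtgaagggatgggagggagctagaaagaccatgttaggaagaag
Tmod4: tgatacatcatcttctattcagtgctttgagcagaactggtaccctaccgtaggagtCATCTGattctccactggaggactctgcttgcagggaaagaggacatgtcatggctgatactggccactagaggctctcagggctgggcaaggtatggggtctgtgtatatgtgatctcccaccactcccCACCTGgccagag
Lmod2: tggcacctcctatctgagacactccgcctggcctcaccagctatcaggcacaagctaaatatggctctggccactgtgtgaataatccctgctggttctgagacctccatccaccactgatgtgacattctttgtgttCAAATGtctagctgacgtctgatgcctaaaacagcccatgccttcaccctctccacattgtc

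In the 250 bases before the start, on either strand, CANNTG was found in 6 of the 8 member entries and in 66.2% of 32544 promoters. The form CAGCTG, which is also counted among the CANNTG matches, was in 2 of the 8 entries and in 13.05% of all promoters. These were the entry of Tpm2 and entry 1 of Tpm3, while entry 2 of Tpm3 lacked it. CATTCC, the letters of the TEAD site, was in 2 entries, of Tpm1 and Tmod1, and in 12.6% of all. The MEF2 site, the CArG box and TATAAA were in 0 of the 8 and in 2.89%, 1.48% and 12.3% of all promoters. The E-box is common, and Tpm2, high in the Ckm set, shares the CAGCTG form with entry 1 of Tpm3, which is low there.

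Tpm1 and Tpm2, which encode the α and β tropomyosins of muscle, were the most abundant members in every set. Tpm1 stood at 2276 CPM in MEF, 464 in the Pax7 set, 1702 in the Myog set, 5538 in the Ckm set and 1175 in the Dcn set. Tpm2 stood at 1096 CPM in MEF, 445 in the Pax7 set, 1907 in the Myog set, 4696 in the Ckm set and 909 in the Dcn set. Both were thus lowest in the Pax7-positive cells and highest in the Ckm-positive cells, with the fibroblasts between. The counting intervals of neighbouring sets did not overlap for either gene. Since UMIs count molecules, the levels are not divided by gene length, although capture can still differ between genes.

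Tpm3 and Tpm4, whose products include cytoplasmic tropomyosins of non-muscle cells (Tpm3 also gives the slow-fibre form), ran the other way within iMPC. Tpm4 stood at 775 CPM in MEF, 602 in the Dcn set, 392 in the Pax7 set, 175 in the Myog set and 59.5 in the Ckm set. Tpm3 stood at 261 CPM in MEF, 201 in the Dcn set, 189 in the Pax7 set, 112 in the Myog set and 91.3 in the Ckm set. The order was the same for both genes, and for Tpm3 the intervals of the Dcn and Pax7 sets overlapped. After thinning every cell to 5000 UMIs, to take depth out, Tpm4 was detected in 75.8% of Pax7 cells and 21.2% of Ckm cells, against 96.3% and 68.0% unthinned.

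**Figure D1:**
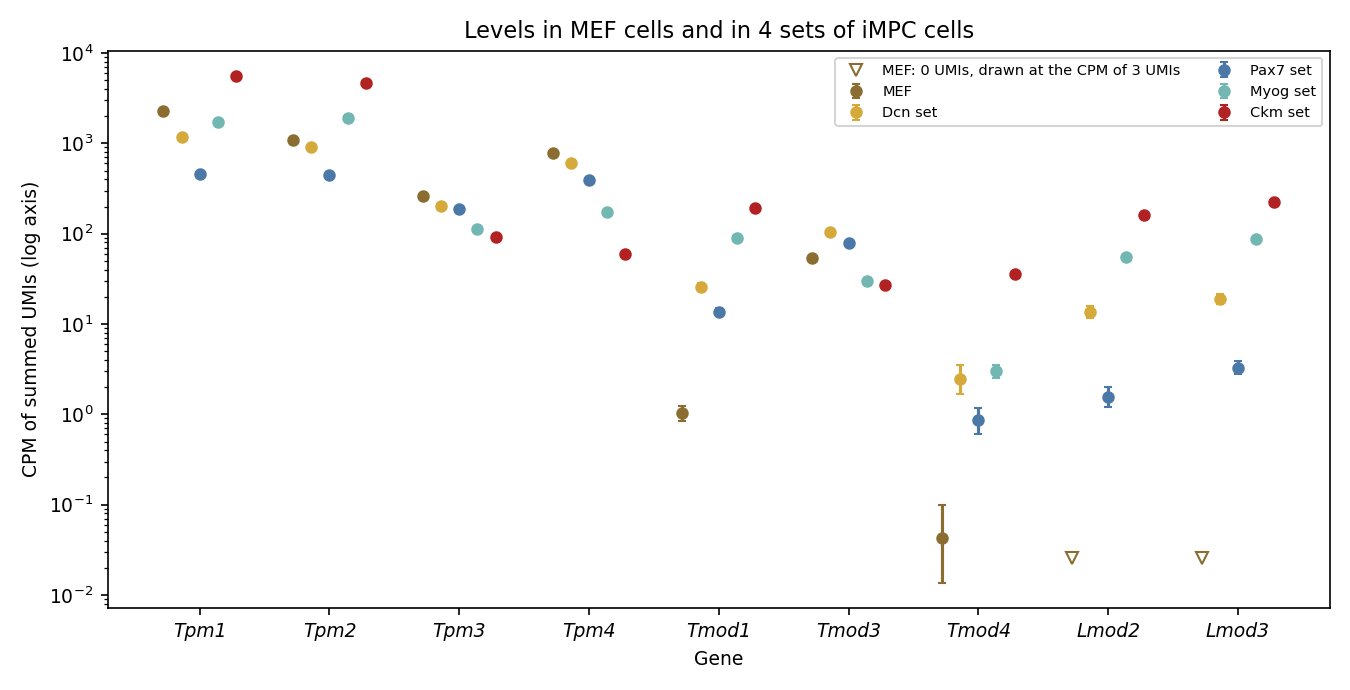
Level of each of the 9 genes as CPM of summed UMIs (log axis) in MEF cells and in the Dcn, Pax7, Myog and Ckm sets of iMPC cells; bars are exact 95% Poisson intervals, and open triangles mark genes with 0 UMIs, drawn at the CPM of 3 UMIs. Tpm4 runs from 775 CPM in MEF to 59.5 in the Ckm set, while Lmod2 and Lmod3 have 0 UMIs in MEF and reach 159.8 and 227 CPM in the Ckm set.

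Summed tropomyosin was 4407 CPM in MEF, 1491 in the Pax7 set, 3896 in the Myog set and 10385 in the Ckm set. The Ckm set thus had the most and the Pax7 set the least. Tpm3 and Tpm4 together made 23.5% of tropomyosin UMIs in MEF (95% interval 23.4 to 23.6), 39.04% in the Pax7 set (38.7 to 39.4), 7.37% in the Myog set (7.25 to 7.49) and 1.45% in the Ckm set (1.42 to 1.49). The Pax7 set therefore had the largest Tpm3 and Tpm4 share of the 5 sets. Splice forms of each gene are counted together, so this is not a share of cytoplasmic forms. In the Dcn set the share was 27.8%, the nearest to MEF.

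Tpm2 made 24.9% of tropomyosin UMIs in MEF (24.75 to 24.99), 29.8% in the Pax7 set (29.5 to 30.2), 48.9% in the Myog set (48.7 to 49.2) and 45.2% in the Ckm set (45.1 to 45.4). Tpm1 made 51.6%, 31.1%, 43.7% and 53.3% in the same order. The Myog set was the only set of the 5 in which Tpm2 outnumbered Tpm1. This lead came from its 1160 cells with 20 or more Myog UMIs, where Tpm2 made 51.0% and Tpm1 42.9%. In its 564 cells with 5 to 19 Myog UMIs Tpm1 led, at 46.2% against 42.4%. In the Dcn set Tpm1 made 40.7% and Tpm2 31.5%.

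**Figure D2:**
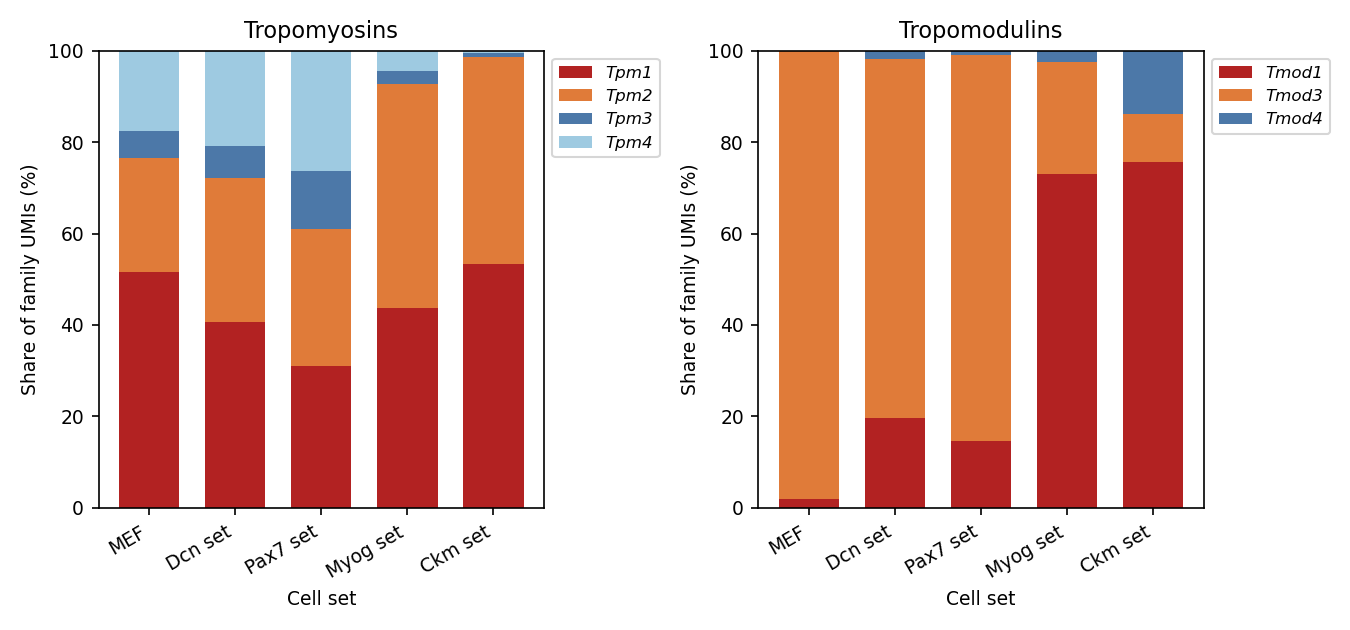
Share of each gene among the UMIs of its family (%) in MEF and in the 4 iMPC sets, as stacked bars for the tropomyosins and the tropomodulins. Tpm3 and Tpm4 shrink from 39.04% of tropomyosin in the Pax7 set to 1.45% in the Ckm set, and Tmod3 from 98.1% of tropomodulin in MEF to 10.6% in the Ckm set.

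Which tropomodulin led differed between the sets. Tmod3, the form of most non-muscle cells, stood at 53.8 CPM in MEF, 103 in the Dcn set, 79.4 in the Pax7 set, 30.2 in the Myog set and 27.2 in the Ckm set, and the intervals of the Myog and Ckm sets overlapped. Tmod1, which caps sarcomeric thin filaments, stood at 1.02 CPM in MEF, 25.7 in the Dcn set, 13.7 in the Pax7 set, 89.8 in the Myog set and 194 in the Ckm set. In Dcn cells of no other set Tmod1 was 11.4 CPM (9.16 to 13.9), so its place above the Pax7 set rested on cells shared with other sets. Tmod3 thus gave 98.1% of tropomodulin UMIs in MEF (97.7 to 98.4) and 84.5% in the Pax7 set (83.3 to 85.6), while Tmod1 gave 73.1% in the Myog set (71.9 to 74.2) and 75.6% in the Ckm set (74.8 to 76.3).

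Tmod4, the tropomodulin of skeletal muscle, was low everywhere but in the Ckm set. It had 5 UMIs in all MEF cells, 0.0423 CPM, and stood at 0.863 CPM in the Pax7 set, 2.99 in the Myog set, 35.4 in the Ckm set and 2.46 in the Dcn set. The intervals of the Myog and Dcn sets overlapped, but in Dcn cells of no other set Tmod4 was 0.617 CPM (0.200 to 1.44), below the Myog set. Its share of tropomodulin was 2.43% in the Myog set and 13.8% in the Ckm set. Thinned to 5000 UMIs, 1.28% of Myog cells and 13.5% of Ckm cells had a Tmod4 UMI, against 5.68% and 43.7% unthinned. In MEF 0 of 5759 thinned cells had a Tmod4 UMI, and 0.0827% of cells had any before thinning. Tmod2 stayed between 1.46 and 4.02 CPM in every set.

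Lmod2 and Lmod3, the leiomodins of striated muscle, had 0 UMIs in all 118069653 MEF UMIs, which puts the limit at 0.0254 CPM. Lmod2 stood at 1.57 CPM in the Pax7 set, 55.5 in the Myog set and 159.8 in the Ckm set. Lmod3 stood at 3.29 CPM in the Pax7 set, 86.9 in the Myog set and 227 in the Ckm set. Lmod3 was the more abundant of the pair in each iMPC set, at 67.8% of their UMIs in the Pax7 set (61.0 to 74.0), 61.0% in the Myog set (59.8 to 62.2), 58.6% in the Ckm set (57.9 to 59.3) and 58.0% in the Dcn set (53.0 to 62.9).

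Detection of the leiomodins followed the same order. At 5000 UMIs per cell Lmod3 was found in 1.38% of Pax7 cells, 22.8% of Myog cells and 61.9% of Ckm cells, and unthinned in 6.06%, 47.4% and 96.9%. Lmod2 was found in 0.596%, 13.1% and 44.9%, and unthinned in 2.89%, 27.6% and 86.1%. The low levels in the Pax7 set are close to what free RNA in the droplets could give: iMPC barcodes of 200 to 600 UMIs held 70.6 CPM of Lmod2 and 132 of Lmod3, and at their median of 430 UMIs, 2.06% of a kept cell, this would amount to 92.9% of the Lmod2 level and 82.7% of the Lmod3 level of the Pax7 set. Barcodes of 1 to 100 UMIs held less, 44.1 CPM of Lmod2, 78.4 of Lmod3 and 7.31 of Tmod4, and would give lower figures. From the barcodes of 200 to 600 UMIs the figure for Tmod4 was 45.3%, for Tmod1 15.4%, for Tpm2 16.1% and for Tpm1 13.9%, and for Tpm3, Tpm4 and Tmod3 1.07%, 0.793% and 0.7%.

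Lmod1, the smooth muscle leiomodin, was highest in MEF, where its relatives had no UMI. It stood at 88.1 CPM in MEF, 3.98 in the Pax7 set, 6.06 in the Myog set, 15.0 in the Ckm set and 15.7 in the Dcn set, so that within iMPC it was higher in the Ckm set than in the Pax7 set, as Lmod2 and Lmod3 were. It made 3.74% of the UMIs of the 3 leiomodins in the Ckm set and 4.08% in the Myog set, but 45.0% in the Pax7 set and 32.4% in the Dcn set.

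The step from the Pax7 set to the Myog set was compared by the ratio of CPM, and a gene was counted as apart when the ratio was at least 2, with at least 10 CPM in the higher set and 10 UMIs in the pair of sets. Of the 9 members, 8 had such a level; 5 were higher in the Myog set (background: 7.02% of 7932 genes) and 2 were lower (11.5%), 7 in all where 18.6% of genes were apart. Lmod2 led with a log2 ratio of 5.15 (95% interval 4.80 to 5.51), followed by Lmod3 at 4.72 (4.48 to 4.97), Tmod1 at 2.71, Tpm2 at 2.10 and Tpm1 at 1.88. Tmod3 at -1.40 and Tpm4 at -1.17 were lower, Tpm3 at -0.76 was under the 2-fold limit, and Tmod4 was under 10 CPM. The median over the 9 members was 1.88, against -0.14 over all genes with a level.

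From the Myog set to the Ckm set all 9 had a level; 6 were higher in the Ckm set (6.53% of 7332 genes) and 1 was lower (13.8%), against 20.4% of genes apart in either direction. Here Tmod4 led, at 3.57 (3.31 to 3.83), above 99.96% of all genes. Tpm1 followed at 1.70 (1.69 to 1.71), then Lmod2 at 1.53, Lmod3 at 1.38, Tpm2 at 1.30 (1.29 to 1.31) and Tmod1 at 1.11. Tpm4 at -1.56 was lower, while Tpm3 at -0.29 and Tmod3 at -0.15 stayed under 2-fold. The leiomodins and Tmod1 thus had their larger ratio at the earlier step and Tmod4 at the later one.

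Over the whole path, from the Pax7 set to the Ckm set, all 9 members were at least 2-fold apart, 6 higher (12.2% of 8115 genes) and 3 lower (30.2%), where 42.4% of genes were apart. Tpm1 was 11.9-fold and Tpm2 10.6-fold higher in the Ckm set, Tmod1 14.1-fold, Tmod4 41.0-fold, Lmod3 68.8-fold and Lmod2 102-fold. The Pax7 levels under these 6 ratios may include free RNA, whose amount in the kept cells was not measured. With 10% of each cell's UMIs subtracted as free RNA the log2 ratios were 5.11 for Tpm1, 5.49 for Tpm2 and 5.72 for Tmod1, in place of 3.58, 3.40 and 3.82. For Tmod4, Lmod3 and Lmod2 the assumed free RNA, 1.90, 13.2 and 7.06 CPM, exceeded the Pax7 levels of 0.863, 3.29 and 1.57. Their Pax7 counts were then set to the floor of 3 UMIs. The values of 8.95, 11.62 and 11.14, in place of 5.36, 6.10 and 6.67, rest on that floor. Tpm4 was 6.59-fold lower, Tmod3 2.92-fold and Tpm3 2.07-fold. The lower call of Tpm3 sat at the limit: its log2 ratio of -1.05 became -0.52 when the sets were scaled by the median of gene ratios. That scaling moved Tpm4 between the Pax7 and Myog sets from -1.17 to -0.95, also short of 2-fold. The 3 comparisons share cell sets, so their ratios are not independent of each other.

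Finer groups of cells gave the same directions for most members. Among iMPC cells with at most 1 Ckm UMI, Lmod3 stood at 3.61 CPM in cells with 0 Myog UMIs, 5.05 with 1 to 4, 44.4 with 5 to 19 and 104 with 20 or more. Tpm2 stood at 508, 546, 1351 and 2133 CPM, and Tmod1 at 13.0, 18.0, 70.3 and 97.8. Tpm4 ran down over the same cells, at 438, 398, 228 and 153 CPM, as did Tmod3 at 83.5, 76.2, 40.4 and 26.0. Tmod4 stood at 0.796, 0.977, 3.52 and 2.77 CPM, so it did not rise further in the last bin, where the intervals overlapped. For Tmod4 and each of the 5 genes named before it the largest ratio between neighbouring bins lay between 1 to 4 and 5 to 19 Myog UMIs. The median depth of the bins ran from 17652.5 to 25031 UMIs.

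Along Ckm itself, Tmod4 stood at 1.06 CPM in cells with 0 Ckm UMIs, 6.34 with 1 to 4, 19.7 with 5 to 19 and 60.0 with 20 to 99. Lmod3, in contrast, stood at 18.1, 120.4, 226 and 228 CPM, nearly level over the last of these bins. Tpm1 stood at 759, 2247, 4708 and 6786 CPM over the same bins, and Tpm4 at 369, 203, 67.8 and 46.6. Tpm3 was higher in the last of these bins, at 100.2 CPM, than in the bin before it, at 86.7. The bin of 100 or more Ckm UMIs held only 6 cells. Median depth ran from 18993.5 to 52267 UMIs over the first 4 bins, and its part in these differences was not tested.

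**Figure D3:**
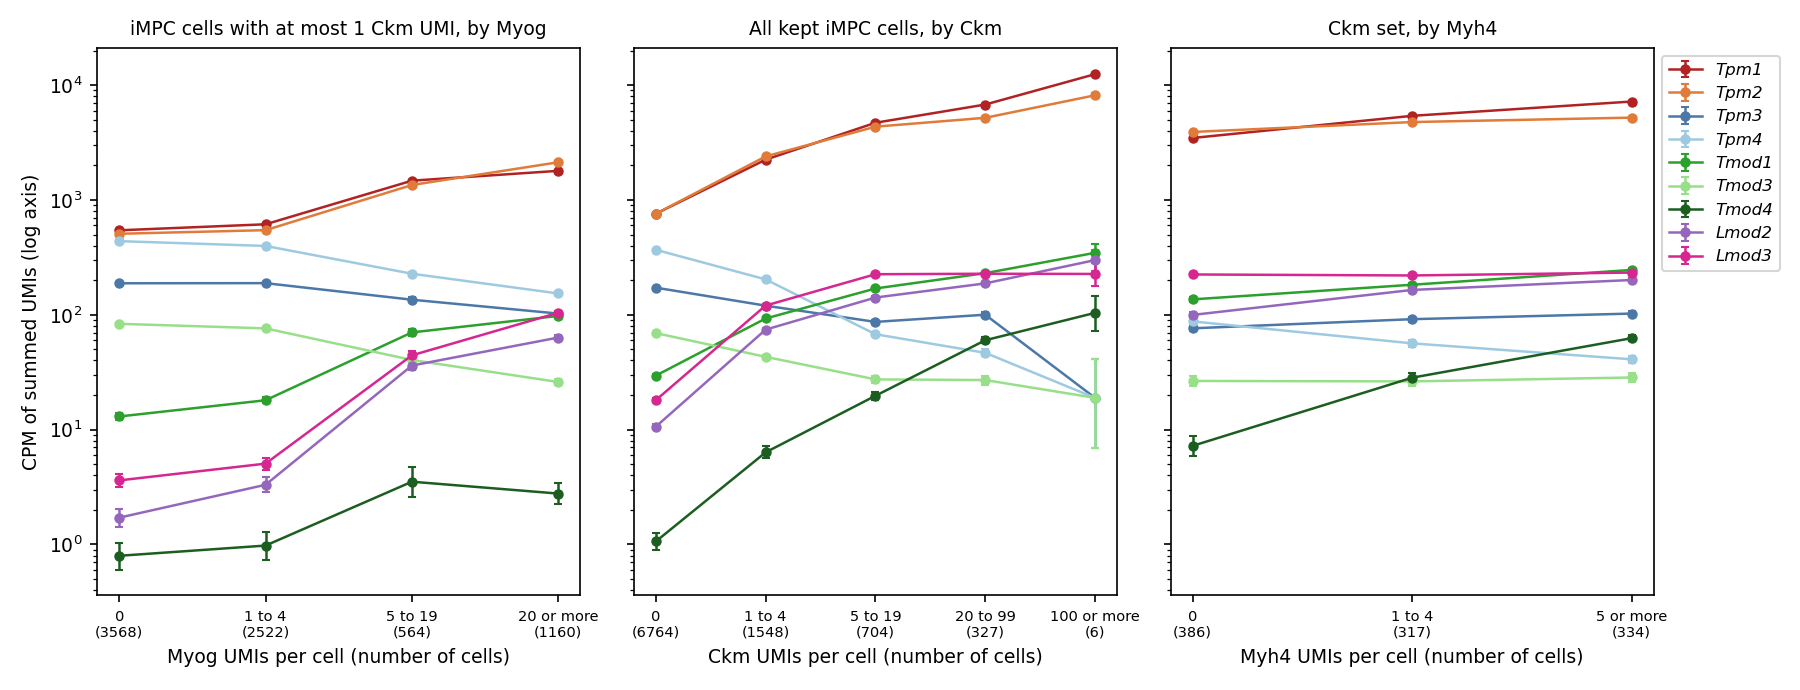
CPM of each of the 9 genes (log axis, with exact 95% Poisson intervals) in iMPC cells with at most 1 Ckm UMI grouped by Myog UMIs, in all kept iMPC cells grouped by Ckm UMIs, and in the Ckm set grouped by Myh4 UMIs; the number of cells stands under each group. Tmod4 goes from 7.22 to 62.6 CPM across the Myh4 groups, where Lmod3 stays between 220.1 and 233 CPM.

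Within the Ckm set the members divided again by Myh4, the myosin heavy chain of the fastest fibres. Tmod4 stood at 7.22 CPM in the 386 cells with 0 Myh4 UMIs, 28.3 in the 317 cells with 1 to 4 and 62.6 in the 334 cells with 5 or more. Lmod2 stood at 99.8, 165 and 201 CPM, and Tmod1 at 136, 183 and 246, while Lmod3 was nearly level at 225, 220.1 and 233. Tpm1 stood at 3470, 5411 and 7208 CPM, so that its share of tropomyosin UMIs was 46.0%, 52.4% and 57.3%. Tpm2, at 3915, 4776 and 5220 CPM, had shares of 51.9%, 46.2% and 41.5%. Tpm3 was also higher with more Myh4, at 76.3, 91.6 and 102.5 CPM. The lead of Tpm2 over Tpm1 seen in the Myog set was therefore present in the Myh4-free cells of the Ckm set and turned to a lead of Tpm1 in the others. Acta2 stood at 1556, 662 and 180 CPM, and the median depth at 32798, 43414 and 52608.5 UMIs; their part in the differences was not tested.

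Single cells varied around these balances by more than counting error. In cells with at least 20 UMIs of Tpm1 and Tpm2 together, the Tpm2 share of the pair had a median of 32.6% in MEF (quartiles 24.0 and 41.9), 44.9% in the Pax7 set (34.6 and 57.1), 53.7% in the Myog set (43.5 and 65.3), 48.7% in the Ckm set (41.4 and 55.4) and 41.3% in the Dcn set (29.3 and 52.4). In the Ckm set the standard deviation over cells was 11.1 percentage points where counting alone would give 2.97, and in MEF 13.4 where it would give 6.61. Only 706 of the 2180 Pax7 cells had enough UMIs, against 1035 of 1037 in the Ckm set, so the Pax7 values describe only those cells. Cells of 1 library are not replicates of the condition.

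**Figure D4:**
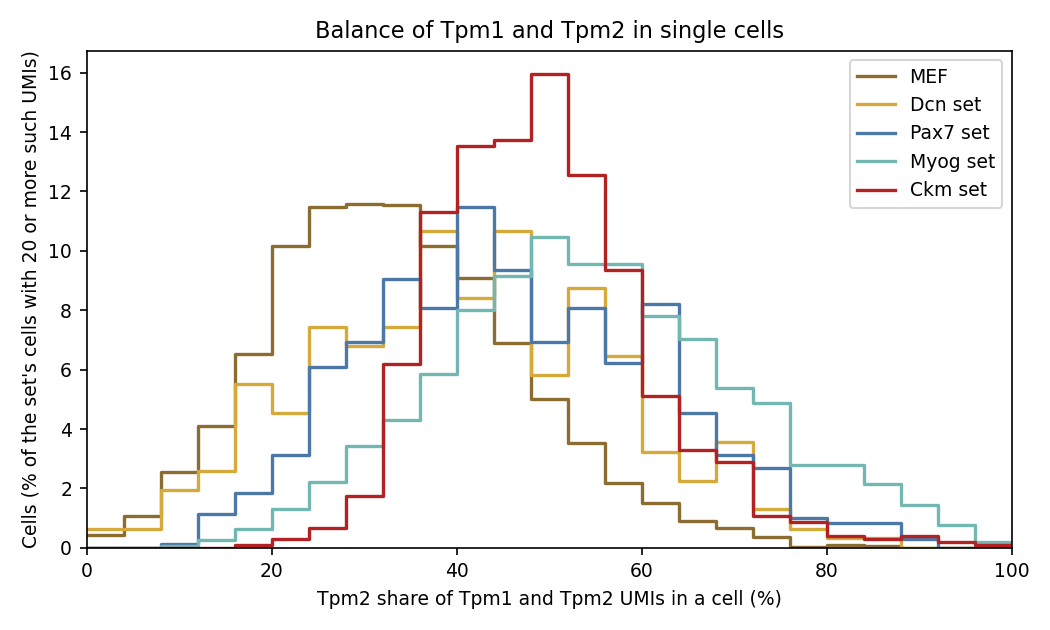
Distribution over single cells of the Tpm2 share of Tpm1 and Tpm2 UMIs (%), as the percent of each set's cells with 20 or more such UMIs, for MEF and the 4 iMPC sets. The MEF cells centre at a median of 32.6% and the Myog cells at 53.7%, and all distributions overlap.

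Whole iMPC against MEF mixes these states. Of the 9 members 8 had a level; 3 were higher in iMPC (14.8% of 8605 genes) and 1, Tpm4, lower (21.5%), while 36.3% of genes were apart in either direction. Tmod1 was 73.6-fold higher, and against 0 UMIs in MEF Lmod2 was at least 2106-fold and Lmod3 at least 3166-fold higher. Tpm1, at 2032 CPM in iMPC and 2276 in MEF, differed 1.12-fold, and its direction turned under scaling by the median of gene ratios (log2 -0.16 and 0.02). Tmod3, at 55.7 and 53.8 CPM, differed 1.03-fold. The summed Tpm1 level gives deep cells more weight. The mean of each cell's own Tpm1 value was 1398 CPM in iMPC and 2202 in MEF (log2 -0.66), and the median over cells was 567 and 1756 CPM, so Tpm1 was lower in the typical iMPC cell. That scaling shifted each ratio by the median log2 ratio of the genes with at least 10 UMIs in each set compared, not the same group as the genes with a level; this median was -0.18 here, -0.21 from the Pax7 to the Myog set, -0.28 from the Myog to the Ckm set and -0.54 from the Pax7 to the Ckm set.

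The Pax7-positive cells had lower levels of all 4 tropomyosins than MEF, the cell type from which the culture was made. Of 6 members with a level, 1 was higher (14.8% of 8557 genes) and 2 were lower (19.4%); 34.2% of genes were apart in either direction. Tpm1 was 4.91-fold lower (log2 -2.29), Tpm2 2.46-fold (-1.30), Tpm4 1.97-fold (-0.98) and Tpm3 1.38-fold (-0.46) lower in the Pax7 set. Tpm4 passed 2-fold, at -1.05, after thinning. Tmod1 was 13.4-fold higher and Tmod3 1.48-fold. With 10% of each cell's UMIs taken as free RNA and subtracted, the log2 ratio of Tmod1 was 1.91 in place of 3.74, and its level was under 10 CPM, so that 0 members counted as higher. Mki67, a gene of dividing cells, had a UMI in 51.7% of Pax7 cells and 9.96% of MEF cells. Within the Pax7 set, cells without and with Mki67 stood at 490 and 447 CPM for Tpm1, 475 and 425 for Tpm2, 175 and 199 for Tpm3 and 414 and 378 for Tpm4. The part of cell division in the difference from MEF was not tested.

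The fibroblasts themselves were graded. MEF cells with 0, 1 to 9, 10 to 49 and 50 or more UMIs of Acta2 numbered 214, 1335, 1285 and 3209. Tpm1 stood at 823, 953, 1442 and 2970.4 CPM in these groups, Tpm2 at 372, 396, 612 and 1475, and Tpm4 at 298, 350.4, 600 and 969. Lmod1 stood at 5.75, 9.38, 31.01 and 132 CPM. For Tpm2 and Lmod1 the intervals of the groups with 0 and 1 to 9 Acta2 UMIs overlapped. Tpm3, at 222, 216, 246 and 279.9 CPM, and Tmod3, at 45.2, 53.9, 53.6 and 54.1, varied little. Lmod2 and Lmod3 had 0 UMIs in every group, including the cells richest in Acta2. Median depth was 11301, 15434, 16037 and 21687 UMIs, and its part was not tested.

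**Figure D5:**
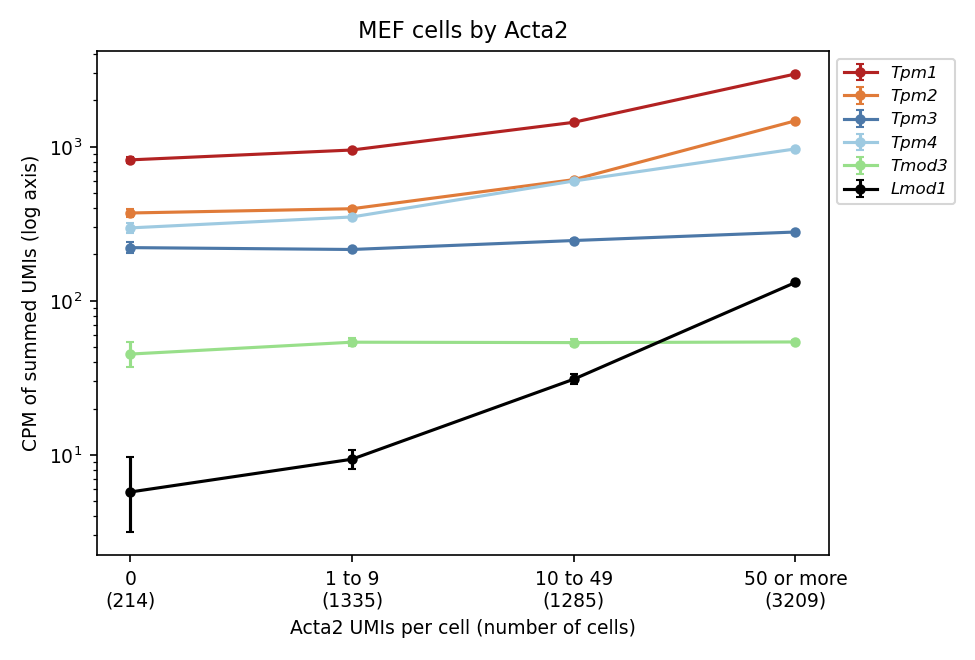
CPM (log axis, with exact 95% Poisson intervals) of the 4 tropomyosins, Tmod3 and Lmod1 in MEF cells grouped by Acta2 UMIs per cell, with the number of cells under each group. Tpm1, Tpm2, Tpm4 and Lmod1 are higher in each group with more Acta2, Lmod1 from 5.75 to 132 CPM, while Tmod3 lies between 45.2 and 54.1. For Tpm2 and Lmod1 the intervals of the groups with 0 and 1 to 9 Acta2 UMIs overlap.

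The Dcn-positive cells of iMPC were also set beside these groups. Dcn-positive cells in no other set, 407 in number, stood at 980 CPM for Tpm1, 720.3 for Tpm2, 214 for Tpm3, 658 for Tpm4 and 108 for Tmod3, with Acta2 at 551 and Lmod1 at 18.8 CPM. Their Tpm1 lay near the 953 of MEF cells with 1 to 9 Acta2 UMIs, while Tpm2, Tpm4 and Tmod3 lay above that group's 396, 350.4 and 53.9.

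Of the whole Dcn set against MEF, 8 members had a level; 3 were higher (13% of 8525 genes), Tmod1, Lmod2 and Lmod3, and 0 were lower (12.9%), where 25.9% of genes were apart. Most UMIs of these 3 genes lay in the 18 cells that were also in the Ckm set. Those cells held 9.42% of the Dcn set's UMIs but 78.4% of its Lmod2, 71.4% of its Lmod3, 70% of its Tmod4 and 59.1% of its Tmod1, and only 3.52% of its Tpm4. In cells of no other set Tmod1 was 11.4 CPM, Lmod3 7.16, Lmod2 3.58 and Tmod4 0.617, against 25.7, 18.98, 13.7 and 2.46 in the whole set. With cells of 1 set only, Tpm1 became a lower call, from -0.95 to -1.22, Tmod3 a higher call, from 0.94 to 1.01, and the leiomodins left the count for want of 10 CPM. Tmod1 stayed a higher call, at 3.47. Of the 18 cells, 14 were scored as doublets by Scrublet, and after removal of all such cells the log2 ratios were 7.50 for Lmod2 from 9.08, 7.31 for Lmod3 from 9.54 and 3.49 for Tmod1 from 4.65.

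The 110 cells in both the Dcn and the Pax7 sets stood at 731 CPM for Tpm1, 619 for Tpm4 and 125 for Tmod3, against 449, 380.03 and 77.0 in the rest of the Pax7 set. Their Tpm1 lay between those cells and the Dcn set's 1175 CPM, while their Tpm4 and Tmod3 were at or above the Dcn set's 602 and 103. Their Tmod1, at 6.56 CPM, was under the 14.1 of the rest.

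Genes with the most similar pattern over the 9349 kept iMPC cells were found by Pearson correlation of log-scaled UMIs among 3927 genes, as a description, since the cells share a library and differ in depth. For Tpm1 they were Mylpf (0.79), Acta1 and Tnnc2, and for Tpm2 Mylpf (0.85), Tnni1 and Acta1, genes of the fast light chain, skeletal actin and troponin. For Tmod1 they were Myl1 (0.70), Ttn and Neb, for Lmod2 Myh8 (0.80), Casq2 and Pgam2, and for Lmod3 Tnni1 (0.82), Myh3 and Mylpf. Tmod4 stood nearest to Myoz1 (0.67), Casq1 and Cmya5, genes of the Z-disc and the calcium store. Tpm4 stood nearest to Cald1 (0.72), Tagln2 and Actb, Tpm3 to Tagln2 (0.44), Cald1 and Basp1, and Tmod3 to Cald1 (0.41), Tagln2 and Anxa5, so caldesmon and transgelin 2 were shared by these 3. Among members, Tpm1 and Tpm2 correlated at 0.79, Lmod2 and Lmod3 at 0.72, Tpm3 and Tpm4 at 0.44, and Tpm2 and Tpm4 at -0.52.

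The other genes of the filament were read from lists, which share some troponins. From the Pax7 to the Ckm set, all 11 thin filament partners with a level were higher, with a median log2 ratio of 5.46, such as Acta1, skeletal actin, from 239 to 14318 CPM, Tnnt2 from 35.8 to 1828 and Nrap, a protein of growing myofibrils, from 2.61 to 166. Over all genes the median was -0.46, and 12.2% were higher. All 10 fast-fibre genes were higher (median 5.73), Myh1 from 8.54 to 701 CPM, Myh2 from 0.545 to 52.3 and Myl1 from 173 to 10344, and so were all 5 slow-fibre genes with a level (5.46), Tnni1 from 71.6 to 4013 CPM and Myh7 from 2.39 to 121. Tropomyosins with log2 ratios of 3.58 and 3.40 thus differed by less than the median thin filament gene, while Lmod2 at 6.67 and Lmod3 at 6.10 exceeded it.

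Among 11 genes of filament ends and turnover with a level, 5 were higher and 2 lower, with a median of 0.35. The higher ones included Klhl41, from 6.11 to 356 CPM, and Klhl40, from 3.86 to 149, whose products stabilise thin filament proteins, with Klhl40 known to protect Lmod3, as well as Cap2 (11.2 to 186) and the muscle cofilin Cfl2 (252 to 1166). Of 14 cytoplasmic actin and stress fibre genes with a level, 8 were lower and 1 higher (median -1.45). Tagln2 stood at 536 CPM in the Pax7 set and 43.1 in the Ckm set, Cald1 at 537 and 56.1, Flna at 85.3 and 8.59 and Actg1 at 1608 and 278. These 4 had the largest ratios of their list, which ran from -3.64 for Tagln2 to 1.26 for Acta2. The log2 ratio of Tpm4, -2.72, was larger in size than the list's median.

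For the earlier step, from the Pax7 to the Myog set, 11 of 11 thin filament partners, 10 of 10 fast and 5 of 5 slow genes were higher, 4 of 10 filament-end genes were higher and 0 lower, and 5 of 14 stress fibre genes were lower and 1 higher. From the Myog to the Ckm set the counts were 9 of 11, 10 of 10 and 3 of 5 higher, 4 higher and 2 lower of 11, and 6 lower and 0 higher of 14. Against MEF, whole iMPC had 11 of 11 thin filament partners, 10 of 10 fast and 4 of 5 slow genes higher, 4 of 11 filament-end genes higher and 5 lower, and 14 of 16 stress fibre genes lower.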

How the data were processed

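Per the labels' protocols, the libraries were made with the 10x Genomics 3′ kit v3. The values the authors deposited are UMI counts for each gene in each barcode, with no normalization, and the file headers name Cell Ranger 4. The submitters' processing notes name Cell Ranger 4.0, Seurat 3.2.3 and GRCm38.p6 without their roles. The iMPC matrix lists 6794880 barcodes, 2707590 of them with a UMI and 282903287 UMIs in all; the MEF matrix lists 6113 barcodes with 118541302 UMIs, and how these were chosen is not given in the sources used here. The libraries were therefore selected differently. The 24 genes listed for MEF only were dropped.

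UMIs were summed over the cells of a set and divided by the set's total (CPM). Intervals are exact Poisson, binomial (Clopper-Pearson) and conditional at 95%, for counting error only, and a count of 0 was set to a floor of 3 UMIs over the set. Ratios were tested on simulated data. Doublets were kept in the main values and removed as an alternative with Scrublet, which marked 337 iMPC cells; in MEF it marked 1, so the 302 highest scores were removed there. Named genes are the 9 members, the 3 genes most like each of them among those with at least 50 CPM in a set, and up to 4 genes of each list with the largest ratio between the Ckm and Pax7 sets; relatives, markers and overlapping genes are named beside them. The members, lists and cell sets were chosen with earlier results of these data known. Python 3.11.15, numpy 2.4.6, scipy 1.17.1, pandas 2.3.3 and scanpy 1.11.5 were used.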

Additional observations from a re-analysis of the deposited data

Results flagged for a closer look

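The iMPC matrix also holds 48846 barcodes of 200 to 600 UMIs that were not used as cells, and all 9 members had UMIs there above the limit that a count of 0 allows. Tpm1 stood at 3122 CPM, Tpm2 at 3475, Tpm3 at 97.9 and Tpm4 at 151. Tmod1 stood at 102 CPM, Tmod3 at 27.0 and Tmod4 at 18.96, and Lmod2 at 70.6 and Lmod3 at 132. In the kept iMPC cells the levels were 2032, 1884, 146 and 274 CPM for the tropomyosins, 75.5, 55.7 and 9.20 for the tropomodulins and 53.5 and 80.4 for the leiomodins. The 6 genes high in the Ckm set were thus higher in these barcodes than in the kept cells, and Tpm3, Tpm4 and Tmod3 were lower. MEF barcodes of that size were not analysed here.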

How the results depend on the processing

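With 1 library per group, precision is limited by the absence of replicates and not by depth, except for Tmod4 and the leiomodins in the Pax7 and Dcn sets. All 66 recomputed counts of members at least 2-fold apart stayed within 1.5 times the reported count, but the members behind a count could change. For the Dcn set against MEF, with cells of 1 set only, Tpm1 and Tmod3 entered and the leiomodins left. For the Pax7 set against MEF, Tmod1 left when 10% free RNA was subtracted. No member reversed a 2-fold difference. Of the recomputed log2 ratios, 255 moved by more than counting error and 339 did not. The Tpm2 share of tropomyosin UMIs moved as follows. With cells thinned to 5000 UMIs it was 25.7% in MEF, 30.3% in the Pax7 set, 48.5% in the Myog set, 46.03% in the Ckm set and 28.0% in the Dcn set. As the mean of each cell's own share it was 24.6%, 32.0%, 48.6%, 48.4% and 25.7% in the same order. With 10% of each cell's UMIs subtracted as free RNA it was 12.1% in the Pax7 set, 48.5% in the Myog set, 44.8% in the Ckm set and 25.5% in the Dcn set. Stricter sets gave 29.4% (Pax7), 48.7% (Myog) and 42.8% (Ckm), and a minimum of 15000 UMIs gave 29.0% (Pax7) and 32.4% (Dcn). Removal of doublets gave 49.3% (Myog) and 26.3% (Dcn), cells of 1 set only 28.0% (Dcn), a mitochondrial limit of 10% gave 45.6% (Ckm), and the iMPC UMI limit applied to MEF too gave 24.7% (MEF). The cause of these moves was not tested. Under several settings Tpm3 between the Pax7 and Ckm sets left the 2-fold limit, at -0.96 in stricter sets and -0.98 after thinning, as did Tmod1 between the Myog and Ckm sets after thinning, at 0.98. Subtraction of free RNA widened the log2 ratio of Tpm2 from the Pax7 to the Myog set, from 2.10 to 4.01. For Lmod2 the assumed free RNA, 7.06 CPM, exceeded the Pax7 level of 1.57 CPM. Its Pax7 count was then set to the floor, and the value of 9.48 between these sets rests on that floor. No paired analysis was possible because each group has 1 library and the labels carry no replicate numbers.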

Other observations

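Of the kept iMPC cells, 4001 met the rule of no set, with a median of 18951 UMIs. Their levels lay between those of the Pax7 and Myog sets for all 9 members: Tpm1 and Tpm2 stood at 1124 CPM each, Tpm3 at 166, Tpm4 at 351, Tmod1 at 38.5, Tmod3 at 68.4, Tmod4 at 2.80, Lmod2 at 23.5 and Lmod3 at 40.6.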
